A study of Homo sapiens with 6 samples.

Results

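The genes described here are 10 ATP-binding cassette (ABC) transporters of subfamilies A and C, namely ABCA1, ABCA2, ABCA3, ABCA4, ABCA7, ABCA12, ABCC2, ABCC3, ABCC8 and ABCC12, in colon carcinoma cells depleted of the nuclear receptor ERRα. They were chosen because the authors' deposited table of the comparison names them, each at 1 to 3 probe sets. A probe set is a small group of array probes that is summarised as 1 value, and many of them cover 1 gene on this kind of array. The table lists 2122 of the 257430 probe sets, and 19 of these carry the name of 1 of the 10 genes. Around these 19, the unbroken runs of consecutive probe set identifiers hold 440 probe sets, of which 434 could be read. Every listed probe set of a gene lay in 1 run, and no run carried the name of a second gene. Whether the unnamed probe sets of such a run measure the same gene is not given.

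The depleted cells, labelled shERRalpha, were of HCT116, a human cell line from a colon carcinoma, and had received a lentiviral short hairpin RNA (shRNA) against ERRα over 48 h. The control cells, labelled shscrambled, were HCT116 cells given a scrambled shRNA in the same way. Both groups were then kept in puromycin for 48 h, and both grew in medium with 10% serum and without phenol red. Each group had 3 arrays, which its labels number as biological replicates. Separate infections are not stated, so the spread between them may be partly technical. The labels name 1 shRNA per group, so loss of ERRα cannot be told apart from other effects of that shRNA.

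ABC transporters use the energy of ATP to move substrates across membranes. Subfamily A moves mainly lipids: ABCA1 passes cholesterol and phospholipid to apolipoprotein A-I, ABCA3 fills the lamellar bodies of lung cells with surfactant lipid, ABCA4 moves retinoids in photoreceptors, and ABCA12 carries glucosylceramide to the lamellar granules of keratinocytes. ABCA2 is an endolysosomal lipid transporter and ABCA7 a phospholipid transporter closely related to ABCA1. In subfamily C, ABCC2 exports glutathione and glucuronide conjugates across the apical membrane, and ABCC3 exports organic anions across the basolateral membrane of intestinal and liver epithelium. ABCC8 is the sulphonylurea receptor subunit of potassium channels that close when ATP is high, and ABCC12 is a family member known mainly from its sequence and its transcripts. The ESRRA gene encodes ERRα, a nuclear receptor without a known natural ligand that switches on genes of mitochondrial respiration.

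The median of the 2 named ESRRA probe sets was 2.29, 2.60 and 2.23 log2 units in the shERRα arrays, against 4.86, 5.10 and 5.28 in the shscrambled arrays. Array medians lay between 4.28 and 4.43 log2 units. shERRα replicate 1 stood apart, with correlations of 0.867 to 0.877 with the other 5 arrays, whereas each of those reached 0.938 to 0.947 with its nearest array. Run differences that move by over 1.5 times or change sign without it are given both ways, here for ABCA1, ABCA4, ABCA7 and ABCC12. With 3 arrays a group, precision is limited throughout. The cell type could not be checked against marker genes, because only listed probe sets carry a name.

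The table holds the probe sets with a difference of 2-fold or more and an unadjusted p below 0.01, a rule that 0.828% of the 256161 usable probe sets met (0.557% lower and 0.271% higher in shERRα). Of the 19 member probe sets, 16 were listed lower and 3 higher, with folds of 2.04 to 12.3. Since the difference itself chose these probe sets, their separation and their folds are a description of the choice. No test of a member is given here, because every value comes from the comparison that chose it. In limma over all probe sets, 0.0% passed an adjusted p of 0.05, with 6962 higher and 11577 lower at an unadjusted p under 0.05. The equal-variance test also passed 0, with 7480 higher and 11084 lower at an unadjusted p under 0.05.

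The values of the listed probe sets place the genes in 3 kinds. Those listed for ABCA1, ABCA2, ABCA3, ABCA4, ABCA12, ABCC2 and ABCC3 were all lower in shERRα. The only ABCC12 probe set was higher, and ABCA7 and ABCC8 each had 1 listed probe set in each direction.

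**Figure D1:**
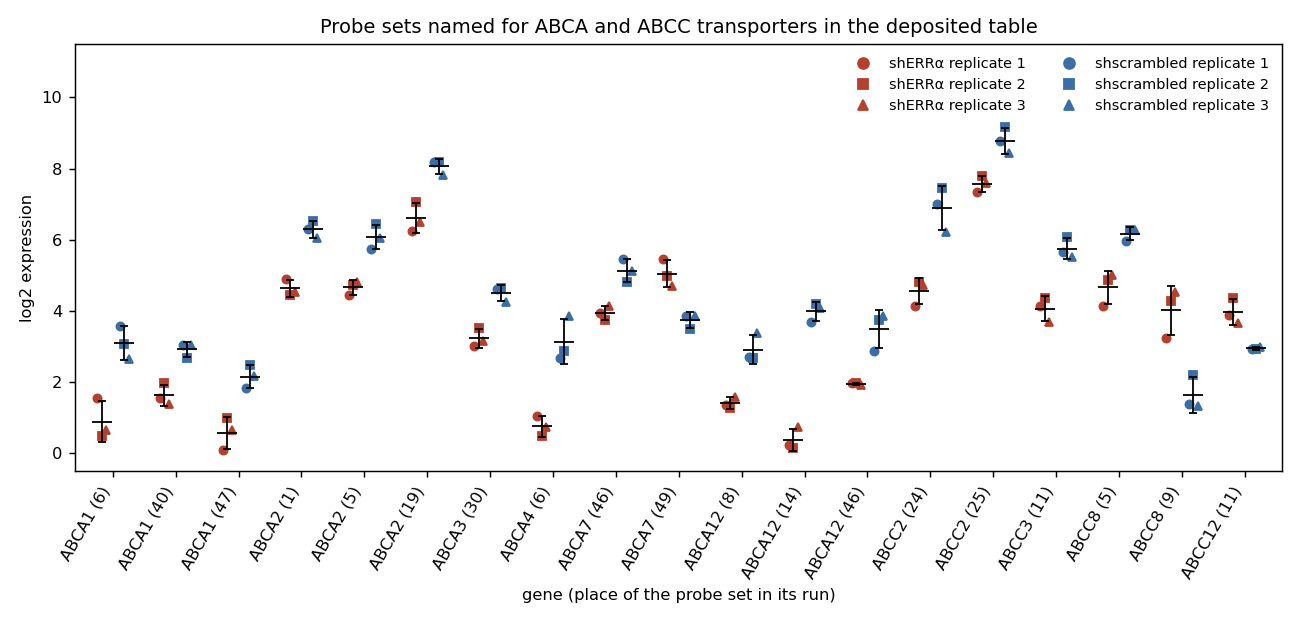
Log2 expression (y axis) of the 19 listed probe sets, by gene and place in the run (x axis), in 3 shERRα arrays (red, left) and 3 shscrambled arrays (blue, right); black bars are mean ± SD. In all 19, which were chosen for their difference, the groups do not overlap, and the widest gap is that of ABCA12 at place 14, with shERRα between 0.14 and 0.73 and shscrambled between 3.70 and 4.19.

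The other 415 probe sets of the runs were not listed, but they come from the same comparison and are likewise given without a test. Of these, 277 (66.7%) were lower in shERRα and 138 higher, with a median log2 difference of -0.36. Over all usable probe sets 50.2% were lower and the median difference was 0.00 log2 units. The groups did not overlap in 73 of the 415 as lower (17.6%) and in 9 as higher, against 8.37% and 5.69% of all probe sets. The runs were chosen for holding a listed probe set, so the shares of all probe sets are not a matched background. These unlisted probe sets were unevenly spread over the 10 genes. In the 4 runs whose group medians did not overlap, given below, 57 of 165 were lower without overlap (34.5%). In the other 6 runs 16 of 250 were (6.4%), and 55.2% were lower at all. That split was made on these same differences.

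Each run was summarised per array by the median of its probe sets. By that measure the groups did not overlap in 4 of the 10 runs, those of ABCA2, ABCA12, ABCC2 and ABCC3, all lower in shERRα. Of all 19182 runs with at least 3 probe sets, 10.5% were lower without overlap. The run medians of ABCA2, ABCA12 and ABCC2 were at least 2-fold lower, which 1.56% of all runs were. With ABCC3, 4 runs were at least 2-fold lower without shscrambled replicate 3 or without shERRα replicate 2. Without shscrambled replicate 2 only ABCA12 was, with log2 differences of -1.46 for ABCA12, -0.89 for ABCA2 and -0.88 for ABCC2. When runs were summarised by their mean, only ABCC2 was, at -1.25, against -0.88 for ABCA12 and -0.85 for ABCA2. The ABCC2 mean includes single very low values of shERRα replicate 1, given below, whose weight in it was not tested. In the other 6 runs the groups overlapped. Every member run was chosen for holding a listed probe set, and its median includes the listed ones. The member runs also hold 32 to 56 usable probe sets each, so the shares of all runs are not a matched background. Over the unlisted probe sets alone, 3 run medians were at least 2-fold lower.

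**Figure D2:**
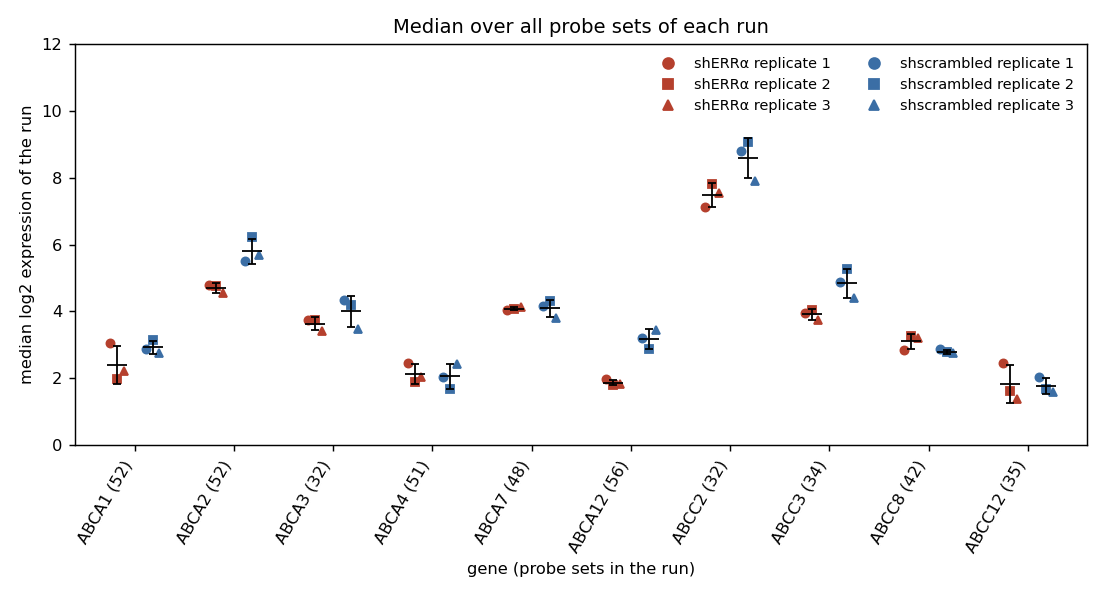
Median log2 expression over all probe sets of each run (y axis) by gene with the number of probe sets (x axis), in 3 shERRα arrays (red, left) and 3 shscrambled arrays (blue, right); black bars are mean ± SD. The groups stand apart for ABCA2, ABCA12, ABCC2 and ABCC3 and overlap for the other 6; heights of different genes come from different probes and are not comparable.

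Among the 4 transporters with separate run medians, the promoters printed here are of 3. RefSeq windows of the 250 bases before a transcription start (build GRCh38.p14) were found for 7 of the 10 members, 11 windows in all; ABCA4, ABCC3 and ABCC8 matched none. They were searched on both strands for AAGGTCA, the half-site that ERR receptors bind, for GGGCGG, the GC box, for CACGTG, an E-box, and for AGGTNA followed 5 bases later by GGTCA, a loose form of the spaced repeat through which the oxysterol receptors LXR act on ABCA1. That repeat was chosen with the ABCA1 sequence in view. AAGGTCA was in 0 of the 11 windows and in 3.44% of 35116 windows of all genes. That says only that these letters are not in these windows.

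The windows of ABCC2 (chr10:99782390-99782639, plus strand), ABCA12 (chr2:215138627-215138876, minus strand), ABCA2 (chr9:137028238-137028487, minus strand) and ABCA1 (chr9:104928156-104928405, minus strand) are shown because the first 3 belong to runs with separate group medians and the last holds the LXR-type repeat. Capitals mark any of the 4 motifs on either strand.
ABCC2: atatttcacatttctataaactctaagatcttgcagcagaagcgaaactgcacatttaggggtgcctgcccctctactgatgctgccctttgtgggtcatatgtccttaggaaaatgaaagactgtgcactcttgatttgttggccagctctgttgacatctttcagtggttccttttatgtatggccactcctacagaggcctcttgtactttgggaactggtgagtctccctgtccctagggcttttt
ABCA12: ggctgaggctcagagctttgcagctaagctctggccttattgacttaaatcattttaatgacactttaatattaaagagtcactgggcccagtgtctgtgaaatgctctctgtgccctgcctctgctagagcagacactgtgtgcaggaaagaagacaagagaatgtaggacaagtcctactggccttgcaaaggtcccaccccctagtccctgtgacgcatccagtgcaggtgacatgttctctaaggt
ABCA2: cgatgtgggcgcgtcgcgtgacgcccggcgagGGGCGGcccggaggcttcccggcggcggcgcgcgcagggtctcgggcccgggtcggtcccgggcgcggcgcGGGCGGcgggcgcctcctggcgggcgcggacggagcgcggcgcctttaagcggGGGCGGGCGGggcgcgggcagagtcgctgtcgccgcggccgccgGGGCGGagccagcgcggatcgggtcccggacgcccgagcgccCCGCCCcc
ABCA1: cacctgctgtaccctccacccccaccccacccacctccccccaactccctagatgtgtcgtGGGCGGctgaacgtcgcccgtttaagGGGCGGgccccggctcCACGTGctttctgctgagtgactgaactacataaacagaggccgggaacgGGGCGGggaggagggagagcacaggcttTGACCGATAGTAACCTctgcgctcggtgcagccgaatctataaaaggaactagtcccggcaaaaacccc
The windows of ABCC2, ABCA12 and ABCA2 differ in composition. The GC content was 45.6% for ABCC2 and 48.8% for ABCA12, with no GC box in either, and 85.6% for ABCA2, with 6 GC boxes of which 2 overlap. The median over all windows was 58.0%, and 42.6% of them hold a GC box. The ABCA1 window holds 3 GC boxes, 1 E-box and the loose LXR repeat 69 bases before the start, on the strand opposite to the one printed; 0.0797% of all windows hold that repeat and 6.34% the E-box. ABCA2 and ABCA12 each have a second window, without a GC box; that of ABCA12 holds an E-box.

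ABCC2, the apical exporter of conjugates, was lower in shERRα at 31 of its 32 probe sets. The run median was 7.11, 7.80 and 7.54 log2 units in shERRα replicates 1 to 3, against 8.81, 9.06 and 7.91 in shscrambled replicates 1 to 3. The groups did not overlap, but shscrambled replicate 3 lay only just above shERRα replicate 2. The run was 2.16-fold lower in shERRα, at 7.48 ± 0.35 log2 units, against 8.59 ± 0.61 in shscrambled (SD, n = 3 each). Listed were probe sets 7929803, at 4.13, 4.81 and 4.73 in shERRα against 7.01, 7.45 and 6.22 in shscrambled, and 7929804, at 7.33, 7.78 and 7.59 in shERRα against 8.79, 9.15 and 8.42 in shscrambled. They were 5.06-fold and 2.33-fold lower in shERRα.

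The 30 unlisted ABCC2 probe sets had a median log2 difference of -1.05, and 17 of them were lower without overlap. The 1 probe set that was higher, at place 11, had values of 4.13, 2.29 and 3.97 log2 units in shERRα, against 2.51, 5.25 and 0.80 in shscrambled, which overlap widely. The 4 unlisted places with a difference beyond 2 log2 units, 6, 12, 19 and 21, shared a low value in shERRα replicate 1. At place 6 that array gave 0.24 log2 units while the other shERRα arrays gave 7.48 and 7.35, against 8.32, 7.92 and 7.50 in shscrambled. At place 21 it gave 1.96, with 7.24 and 7.26 in the other shERRα arrays, against 8.49, 8.87 and 7.83 in shscrambled. At places 12 and 19 it gave 2.87 and 2.47, also far below the other shERRα arrays. Without shERRα replicate 1 the run difference of ABCC2 was -0.92, in place of -1.11. Against the shscrambled mean of each probe set, 30, 32 and 31 of the 32 ABCC2 probe sets were lower in shERRα replicates 1, 2 and 3.

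ABCA12, the glucosylceramide transporter, was lower in shERRα at 48 of 56 probe sets. Its run median was 1.96, 1.81 and 1.83 log2 units in the shERRα arrays, against 3.20, 2.87 and 3.45 in the shscrambled arrays, without overlap. The difference of run medians was -1.30 (SE 0.17), whereas the median of the probe set differences was -0.79, so the size depends on the summary. The shERRα run medians lay under 2.41 log2 units, the 25th percentile of probe set means. Folds are not exact at such low levels, and background itself was not measured here. In 8 of the 19 listed probe sets at least 1 group mean lay under 2.41 log2 units, all 3 of ABCA12 among them.

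Probe set 8058722 of ABCA12 had 0.24, 0.14 and 0.73 log2 units in the shERRα arrays, against 3.70, 4.19 and 4.07 in the shscrambled arrays. That gap of 3.62 log2 units was the widest of the 19. The shscrambled values of this probe set were close together, and the shERRα values were at the low end of the scale. Probe sets 8058716 and 8058754 were 2.84-fold and 2.91-fold lower in shERRα. Of the 53 unlisted probe sets 45 were lower and 21 of these at least 2-fold, and 2 were at least 2-fold higher. Over all probe sets 6.84% were at least 2-fold lower and 3.72% at least 2-fold higher. The 8 higher ones included the first 5 places of the run. At places 1 and 2 the log2 differences were 1.10 and 1.27, and at both the groups overlapped. From place 26 to the end of the run, 2 probe sets were higher, at places 38 and 54. The labels and files do not say how places map onto the transcript.

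ABCA2, the endolysosomal lipid transporter, was lower in shERRα at 42 of 52 probe sets. The run median was 4.79, 4.77 and 4.54 log2 units in the shERRα arrays, against 5.51, 6.22 and 5.68 in the shscrambled arrays. All shERRα values lay below all shscrambled values, and the run was 2.15-fold lower (log2 difference -1.10, SE 0.23). Its 3 listed probe sets, at places 1, 5 and 19, were 3.15-fold, 2.66-fold and 2.74-fold lower. Probe set 8165364, at place 19, had 6.25, 7.06 and 6.50 log2 units in shERRα, against 8.18, 8.19 and 7.81 in shscrambled.

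Of the 49 unlisted ABCA2 probe sets, 39 were lower, with a median log2 difference of -0.93. The highest mean levels of the run were at places 50 and 8, which were higher in shERRα, at 0.66 and 0.31. Next came place 15, at -1.02, and the groups overlapped at all of these places. The first 5 places of the run were all lower without overlap. Of 17 unlisted probe sets lower without overlap, the widest differences were at places 13 and 18, at -2.90 and -2.86. Place 18 had 1.96, 4.46 and 5.20 log2 units in shERRα, against 7.21, 7.04 and 5.96 in shscrambled. Near the end of the run, places 46 and 52 went the other way, at 2.01 and 1.81 log2 units higher in shERRα without overlap. Place 52 had 5.25, 4.66 and 4.66 log2 units in shERRα, against 2.87, 2.21 and 4.07 in shscrambled.

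ABCC3, the basolateral exporter, was lower in shERRα at 27 of 34 probe sets; 2 more of its run could not be read. The run median was 3.95, 4.05 and 3.73 log2 units in the shERRα arrays, against 4.87, 5.26 and 4.40 in the shscrambled arrays. The groups did not overlap, and the run was 1.91-fold lower in shERRα, 3.91 ± 0.16 against 4.84 ± 0.43 log2 units (SD, n = 3 each). Only probe set 8008465 was listed, with 4.13, 4.37 and 3.68 log2 units in shERRα, against 5.67, 6.07 and 5.52 in shscrambled, 3.24-fold lower.

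The median over the 33 unlisted ABCC3 probe sets was -0.88, and 9 of them were lower without overlap. The 5 places after the listed one, 12 to 16, held differences of -2.48, -2.04, -1.35, -0.35 and -3.30, with overlapping groups at places 13 and 15. At place 16, shERRα had 0.73, 3.07 and 3.79 log2 units, against 5.79, 6.18 and 5.52 in shscrambled. The difference there was large in every shERRα array and the spread among them was wide. The 7 higher probe sets included the first 2 of the run. Place 1 had 8.51, 7.32 and 7.94 log2 units in shERRα, against 7.23, 6.90 and 7.55 in shscrambled, with overlap. Places 1 and 27 had the highest mean levels of the run, with differences of 0.70 and 0.30. Next came place 28, at -0.37, and the groups overlapped at places 27 and 28 too.

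**Figure D3:**
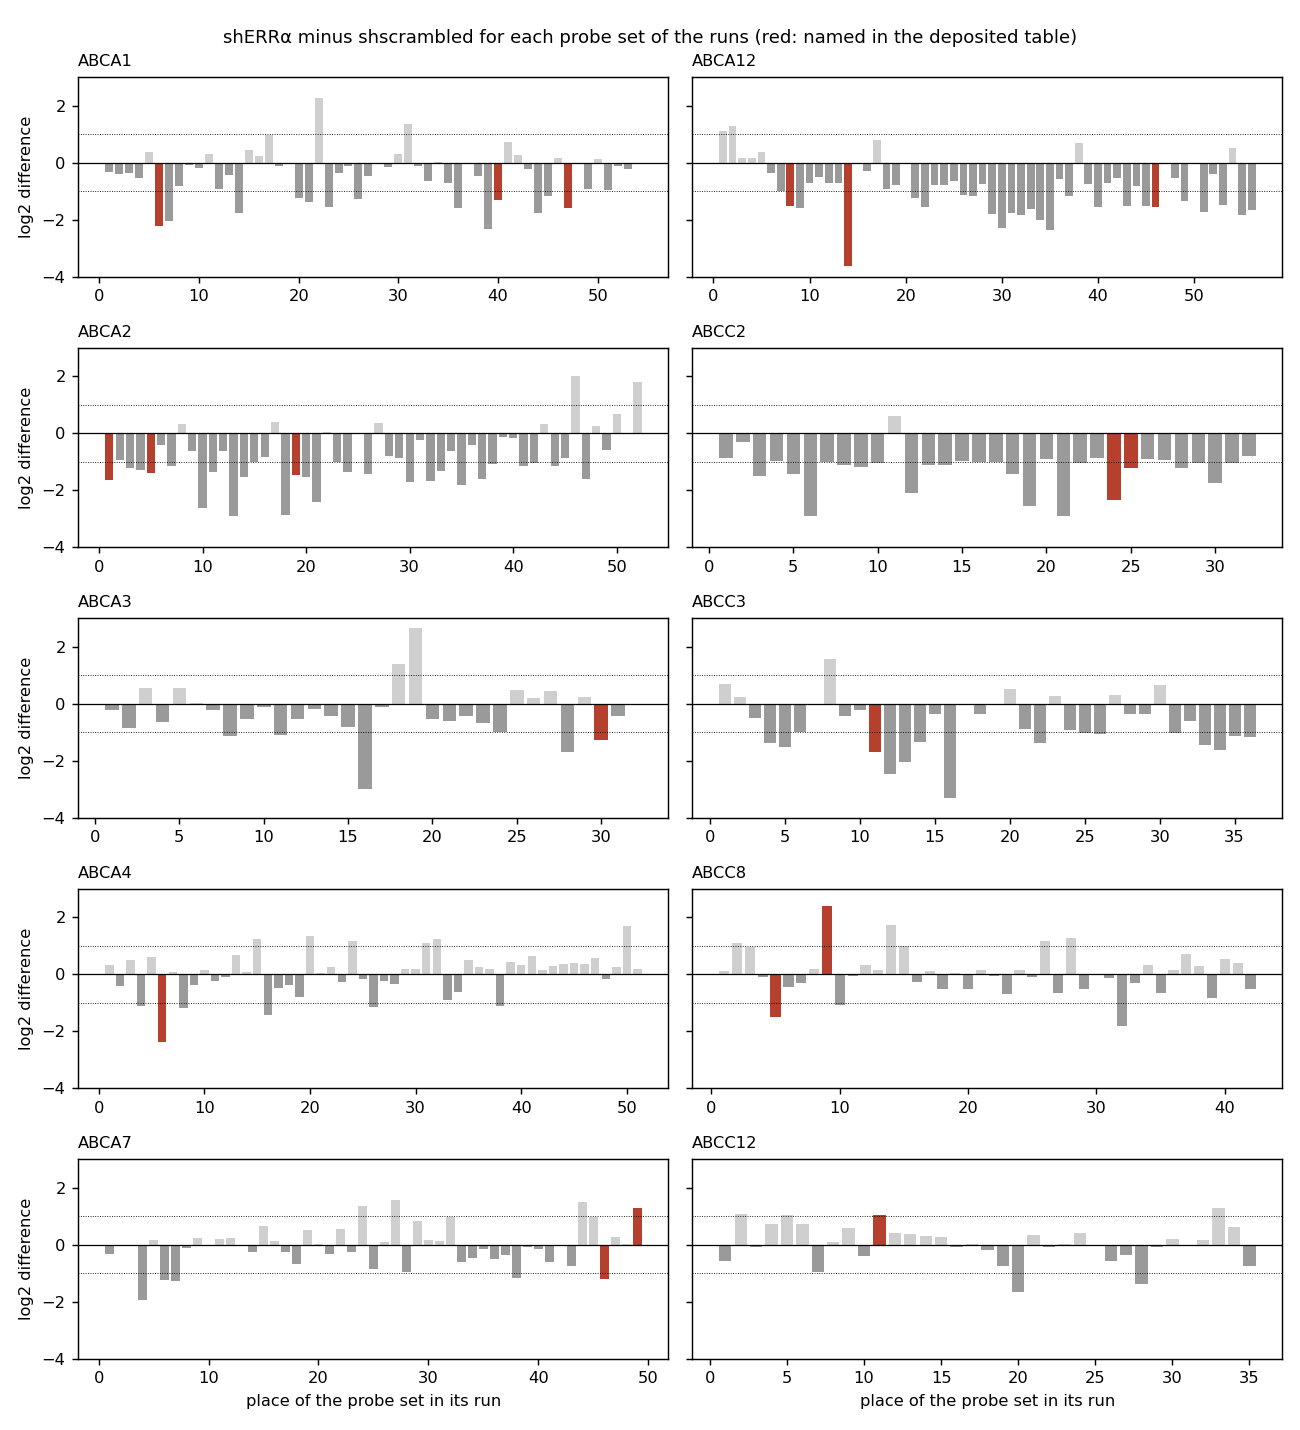
Log2 difference, shERRα minus shscrambled (y axis), of every usable probe set by its place in the run (x axis), with 1 panel per gene; red bars are listed probe sets, darker grey bars are lower and lighter grey bars higher, and dotted lines mark 2-fold. Bars below 0 fill most of the panels of ABCC2 (31 of 32), ABCA12 (48 of 56), ABCA2 (42 of 52) and ABCC3 (27 of 34), whereas the single red bars of ABCA4 and ABCC12 stand among bars of both signs.

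ABCA1, the cholesterol exporter, was listed lower at 3 probe sets, and its run was lower with overlapping groups. Probe set 8162946 had 1.54, 0.47 and 0.66 log2 units in shERRα, against 3.58, 3.07 and 2.65 in shscrambled. Probe sets 8162980 and 8162987 were 2.45-fold and 2.99-fold lower, and for all 3 the shERRα mean lay under 2.41 log2 units. For 8162987 the shscrambled mean, 2.16 log2 units, did so too. The run median was 3.05, 1.96 and 2.21 log2 units in the shERRα arrays, against 2.87, 3.15 and 2.76 in the shscrambled arrays. shERRα replicate 1 lay among the shscrambled arrays, while the other shERRα arrays lay below them. The log2 difference was -0.52 (SE 0.35) with all arrays, -0.84 without shERRα replicate 1 and -0.30 without shERRα replicate 2. It was -0.25 when probe sets under the 25th percentile were left out. Of 52 readable probe sets 39 were lower, and 3 others of the run could not be read. Against the shscrambled mean, 21 of the 52 were lower in shERRα replicate 1, 45 in replicate 2 and 41 in replicate 3. The widest opposite value was at place 22, with 3.95, 3.44 and 4.76 log2 units in shERRα, against 1.13, 1.38 and 2.87 in shscrambled.

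ABCA3, the surfactant lipid transporter, was listed at 1 probe set, 7998814. It had 3.02, 3.52 and 3.15 log2 units in shERRα, against 4.61, 4.64 and 4.25 in shscrambled, 2.41-fold lower. Its run was lower at 23 of 32 probe sets, with run medians of 3.73, 3.75 and 3.40 log2 units in shERRα, against 4.34, 4.19 and 3.47 in shscrambled. shscrambled replicate 3 lay among the shERRα arrays, and the difference was -0.37 (SE 0.29). It was -0.64 without shscrambled replicate 3 and -0.20 without shscrambled replicate 1. Single places varied widely: the difference was -3.00 log2 units at place 16, without overlap, and 2.64 at place 19, with overlap.

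The listings of ABCA4 and ABCC12 each rested on 1 probe set that its run did not follow. ABCA4, the photoreceptor retinoid transporter, had 1.05, 0.47 and 0.73 log2 units at probe set 7917804 in shERRα, against 2.67, 2.87 and 3.87 in shscrambled, 5.23-fold lower. In its run 20 probe sets were lower and 31 higher, and the run medians of 2.14 ± 0.30 log2 units in shERRα and 2.06 ± 0.38 in shscrambled (SD, n = 3 each) overlapped. That difference of 0.08 log2 units lay between -0.11 and 0.27 when each array was left out, at -0.08 without shERRα replicate 1. Of the 51 probe sets, 30 had a mean under 2.41 log2 units over the 6 arrays. ABCC12 had 3.89, 4.36 and 3.66 log2 units at probe set 8001246 in shERRα, against 2.92, 2.93 and 2.99 in shscrambled, 2.04-fold higher, which was the smallest listed fold of the members. Its run had 15 lower and 20 higher probe sets, and 25 of the 35 had a mean under 2.41 log2 units. The run medians were 1.82 ± 0.57 log2 units in shERRα and 1.77 ± 0.25 in shscrambled (SD, n = 3 each), with overlap. The difference of 0.05 lay between -0.28, without shERRα replicate 1, and 0.27, without shERRα replicate 3.

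ABCA7 and ABCC8 were listed in both directions. For ABCA7, the phospholipid transporter related to ABCA1, probe set 8024166 had 3.95, 3.75 and 4.13 log2 units in shERRα, against 5.46, 4.81 and 5.11 in shscrambled. Probe set 8024169, 3 places further and last in the run, had 5.46, 4.98 and 4.70 log2 units in shERRα, against 3.87, 3.48 and 3.87 in shscrambled. The first was 2.27-fold lower and the second 2.47-fold higher in shERRα. The run had 27 lower and 21 higher probe sets and a difference of -0.01 (SE 0.15) between run medians, between -0.15 and 0.10 when each array was left out and 0.01 without shERRα replicate 1.

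For ABCC8, the sulphonylurea receptor, probe set 7946865 had 4.13, 4.86 and 4.998 log2 units in shERRα, against 5.96, 6.28 and 6.27 in shscrambled, 2.84-fold lower. Probe set 7946869 had 3.23, 4.28 and 4.53 log2 units in shERRα, against 1.38, 2.21 and 1.32 in shscrambled, 5.19-fold higher. These places, 5 and 9 of 42, lay close together in the run. The run had 21 lower and 21 higher probe sets. Its run median was 3.10 ± 0.22 log2 units in shERRα and 2.79 ± 0.06 in shscrambled (SD, n = 3 each), with overlap. That difference of 0.31 changed to -0.20 when probe sets under the 25th percentile were left out and was 0.06 over the unlisted probe sets.

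The runs were also divided at 4.29 log2 units, the median level of all probe sets, with each probe set placed by its mean over the 6 arrays. The counts include the listed probe sets, which were chosen for their difference, so the shares of all probe sets are not a matched background. At or above it, 31 of 31 ABCC2, 31 of 38 ABCA2 and 13 of 17 ABCC3 probe sets were lower in shERRα, where 54.7% of all probe sets at that level were lower. Their median log2 differences were -1.06, -1.11 and -0.88. For ABCA12 only 3 probe sets reached that level, 2 of them lower. Among the runs with overlapping groups, 5 of 5 ABCA1 and 8 of 10 ABCA3 probe sets at or above it were lower, with medians of -0.20 and -0.44. There the counts were nearer to even for ABCA7 (12 of 20), ABCC8 (6 of 11) and ABCA4 (2 of 4), and 0 of 2 ABCC12 probe sets were lower. Below 4.29 log2 units, 46 of 53 ABCA12, 11 of 14 ABCA2 and 14 of 17 ABCC3 probe sets were lower, and the 1 ABCC2 probe set was higher, where 45.7% of all probe sets at that level were lower. Of the other runs below it, 34 of 47 ABCA1, 15 of 22 ABCA3, 15 of 28 ABCA7, 18 of 47 ABCA4, 15 of 31 ABCC8 and 15 of 33 ABCC12 probe sets were lower. Thus ABCA1 and ABCA3, whose run medians overlapped, were mostly lower at both levels. The last probe set of the ABCC8 run had 10.00, 11.47 and 11.56 log2 units in shERRα, against 11.41, 11.53 and 11.62 in shscrambled, with overlap.

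**Figure D4:**
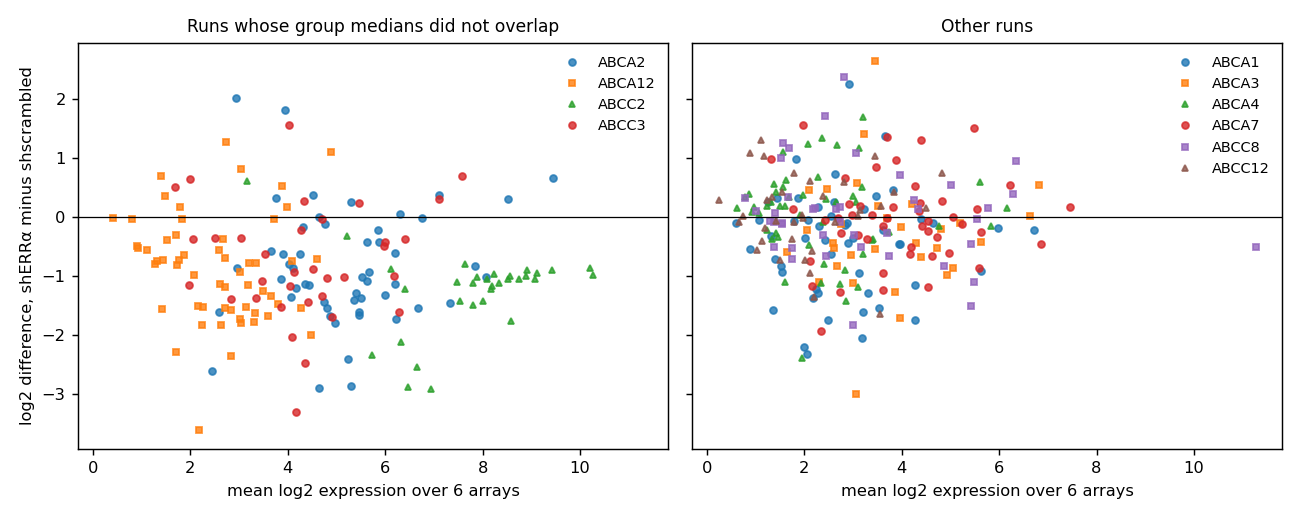
Log2 difference, shERRα minus shscrambled (y axis), against the mean log2 expression over the 6 arrays (x axis) for every usable probe set, with the 4 runs whose group medians did not overlap on the left and the other 6 on the right. On the left 85.1% of points lie below 0 and the ABCC2 points form a band near -1; on the right 55.8% lie below 0. The panels were split by these same differences, so a larger share on the left is part of the split. Both shares include listed probe sets, and without them they were 84.2% and 55.2%.

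Just outside the listing rule were 41 more probe sets of the runs that differed at least 2-fold at an unadjusted p under 0.05, 37 of them lower and 4 higher. Over all probe sets 1.77% were lower and 0.959% higher by that rule, listed ones included. Of the 41, 15 were of ABCA2, 8 of ABCA12, 6 of ABCC3, 5 of ABCA1 and 4 of ABCC2, and ABCA4, ABCC8 and ABCC12 had none. Nearest to the threshold was ABCA2 at place 33, with 5.52, 5.49 and 4.998 log2 units in shERRα, against 6.76, 7.03 and 6.22 in shscrambled, and an unadjusted p of 0.0104. Inside it, the highest p of a member in the authors' deposited table was 0.00853, for the higher ABCC8 probe set.

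Other ABC transporter genes were searched by name in the authors' deposited table. None of 6 other ABCA and none of 11 ABCB genes was listed. Of 8 other ABCC genes, CFTR, the chloride channel of the family, was listed higher at 1 probe set, with 2.87, 3.07 and 2.32 log2 units in shERRα, against 1.58, 1.38 and 1.58 in shscrambled. Of 13 ABCD, ABCE, ABCF and ABCG genes, ABCG1 and ABCG4 were listed lower and the drug exporter ABCG2 higher. A gene that is not listed cannot be looked up, so nothing is known here about its difference, and the share of all genes that was listed is not known.

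ABCG1, which passes cholesterol to lipoprotein particles, was listed at 3 probe sets, all lower. Their median was 0.47, 0.66 and 0.90 log2 units in the shERRα arrays, against 2.67, 3.95 and 3.50 in the shscrambled arrays. Its run had 17 lower and 7 higher probe sets and a difference of -0.61. ABCG4 and ABCG2 rested on 1 probe set each, with run differences of -0.13 and 0.23. The ABCG4 run had 6 lower and 9 higher probe sets, and the ABCG2 run 9 lower and 12 higher.

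Among 12 lipoprotein and lipid acceptor genes, the HDL receptor SCARB1 was listed lower at 3 probe sets. SCARB1 had 6.56, 6.62 and 6.43 log2 units in shERRα, against 7.48, 7.64 and 7.70 in shscrambled, and 15 of its 18 run probe sets were lower. In the list of 14 transcription factors that regulate ABC transporter genes, only SREBF1 and SREBF2, the sterol response factors, were listed, both lower. The receptors for oxysterols, bile acids and foreign compounds in that list were not listed.

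Of 13 carriers that take organic anions into cells, the opposite direction to ABCC2 and ABCC3, 5 were listed. SLCO3A1 and SLCO4A1 were lower, with run differences of -1.01 and -0.75, and SLCO1B1, SLCO1B3 and SLC22A6 were higher, with run differences of 0.17, 0.05 and 0.14. Each of the 5 was listed at 1 probe set. Of 15 glutathione genes, which make the conjugates that ABCC2 exports, GSTK1 was listed lower at 1 probe set, with 12 of 13 run probe sets lower, and none of 7 glucuronidation and sulphation genes was listed. Of 8 ceramide and epidermal lipid genes, ALOXE3 was listed, at 1 probe set in each direction. Neither of the 2 potassium channel partners of ABCC8 was listed.

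No surfactant gene (0 of 6), retinal cycle gene (0 of 6), hepatocyte, beta cell or keratinocyte marker (0 of 10) or colon epithelium marker (0 of 10) was listed. Of 10 fibroblast, leukocyte and endothelial markers, COL1A2 was listed lower and COL3A1 higher, at 1 probe set each, with run differences of -0.11 and 0.20. Their part in the members' values was not tested.

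Listed genes most like the 3 members with 3 listed probe sets were sought by the root mean square difference of centred listed medians over the 6 arrays. For ABCA2 these were REPS2 (0.06 log2 units), ITPR1 (0.08) and GOLGB1 (0.09). For ABCA1 they were FA2H (0.13), HECA (0.16) and RASD2 (0.17), and for ABCA12 HNF4G (0.17), NIPAL3 (0.17) and SLCO3A1 (0.18). All 9 were chosen from genes listed on the same arrays, at 1 or 2 probe sets each, so likeness in the group difference is part of the choice.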

How the data were processed

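Total RNA of HCT116 cells, on 3 shERRα and 3 shscrambled arrays, was hybridised to Affymetrix whole-transcript arrays, per the labels' protocols. The deposited value table holds log2 expression per probe set, which the authors obtained by RMA according to the deposited notes on processing. No software version, annotation or build is given in the sources used here. Its decimal marks were lost. Strings of 7 digits were read as 10 or more and others as under 10. A further 90472 values (5.86%) fitted both and took the reading nearer to the probe set's unambiguous values. In 159 probe sets no value was unambiguous, and all their values were read as under 10. Left out were 1269 undecided probe sets, 6 of them in the runs of the members. A further 12 undecided probe sets, all listed, took the reading that matched their deposited fold change. The reading gave all 2122 deposited fold changes, which are a ratio of shERRα over shscrambled per the file headers, within 0.001 log2 units. For those 12 the match was fixed by that choice. It also gave every p-value of the authors' deposited table within 1%.

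Names come from the authors' deposited table alone, updated through RefSeq accessions of GRCh38.p14. All probe sets were fitted with limma (version 3.58.1, R 4.3.3; lmFit, eBayes, Benjamini-Hochberg) and with the equal-variance test of the listing rule; the code was tested on simulated data. Run medians were taken per array and averaged per group. The members and lists were chosen with earlier results of these data known. The rule for named genes was all members, ESRRA, every listed gene of the 16 lists, and the 3 most similar listed genes for the members with the most listed probe sets (3 tied). The result of 1 list gene is not reported here. Alternatives were a replicate block, leaving out each array, quantile normalisation, median centring, filters on dim probe sets, array weights, other summaries and, chosen after seeing the data, inclusion of undecided probe sets.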

Additional observations from a re-analysis of the deposited data

How the results depend on the processing

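The number of probe sets meeting the listing rule, 695 higher and 1427 lower, was 392 and 675 with a replicate block and 270 and 854 above the median level. Leaving out each array gave 513 to 906 higher and 775 to 1705 lower, with 775 lower without shscrambled replicate 2 and 909 without shscrambled replicate 1; fewer arrays were tested there. Same-numbered arrays had deviations correlated weakly, at 0.05 to 0.08, and each array correlated best with its own number. Arrays of different numbers had correlations of -0.0602 to -0.0045. Whether the numbers mark pairs is not settled by this, and the main fit did not use them. limma passed 0 in either direction under every alternative run, with or without the replicate block. Of the members, 7 were lower by the median of their listed probe sets, and 4 of the 5 that still had a value above the median level, where fewer probe sets remain. Those 4 include ABCC8, which is not among the 7: it turned from 0.43 to -1.51 because its higher listed probe set was filtered out. The number with a run median at least 2-fold lower was 3; it was 1 with the mean over the run, and 1 to 4 when each array was left out, lowest without shscrambled replicate 2 and highest without shscrambled replicate 3 or shERRα replicate 2; the cause was not tested. Of 150 alternative run values, 136 kept their sign; the 14 that turned were of ABCA4, ABCA7, ABCC8 and ABCC12. Of 123 alternative listed medians, 120 kept theirs, which says little because these probe sets were chosen for their difference, and the block leaves a log2 difference as it is. The run differences of ABCA2, ABCA12, ABCC2 and ABCC3 ranged from -1.25 to -0.85, -1.46 to -0.88, -1.45 to -0.88 and -1.15 to -0.72.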

Other observations

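Many values in the deposited table recur. Within an array, 52.0% to 61.9% of probe sets carried a value, to all the digits given, that at least 10 probe sets of the same array carried, and in shERRα replicate 1 a single value, 1.54 log2 units, was carried by 5812 probe sets. Of the 114 values of the 19 listed member probe sets, 109 were such shared values, and for 17 of the 19 all 6 arrays were on one. Over all 434 member probe sets the share was 92.9%, against 56.5% over the whole table. It was 65.1% for ABCC2 and between 90.2% and 97.9% for each of the other 9 genes. Over the whole table it was 67.2% in the 25% of probe sets with the lowest mean level and 40.8% in the 25% with the highest. ABCA12 probe set 8058754 shows the pattern: it had 1.96, 1.96 and 1.92 log2 units in the shERRα arrays, against 2.87, 3.73 and 3.87 in the shscrambled arrays, an SD of 0.02 against 0.54. Whether shared values bear on the spread that the listing rule used was not tested.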
